A study of Homo sapiens with 6 samples.

Results

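After silencing of RBCK1 in MDA-MB-231, a long-established human line of triple negative breast cancer, 46 genes of lysosomal enzymes, membrane proteins and the lysosomal proton pump were followed. The genes were listed by name and found through their Entrez gene numbers, 46 of 46, among the 17149 genes of each table: 11 cathepsins, 11 glycosidases and sulfatases, 7 enzymes and precursors that handle lipids, proteins and cofactors, 5 membrane proteins, 10 genes of the proton pump (V-ATPase) and the transcription factors TFEB and TFE3. The siRBCK1 group (cells transfected with siRNA against RBCK1) and the siControl group (cells transfected with a control siRNA) had 3 libraries each, all from the same line and otherwise untreated as far as the labels say. The paper describes more than 1 siRNA against RBCK1 and does not name the one behind these libraries, so an effect of the siRNA sequence cannot be told apart from that of RBCK1. Levels are in FPKM, the fragments of a gene corrected for its length and for the size of the library, so that levels of genes of different length can be set side by side. Read totals are not given, and the depth of each library is unknown. In bulk RNA, fewer cells with a transcript and less of it per cell cannot be told apart.

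Lysosomes are the acid compartment in which the cell breaks down proteins, glycans and lipids. The V-ATPase pumps protons into the lumen: its V1 part, on the cytosolic side, splits ATP, and its V0 part, in the membrane, carries the protons. Most soluble enzymes reach the lumen through a mannose 6-phosphate tag, and many of the genes are switched on by TFEB and TFE3, which bind a palindrome called the CLEAR element near the start of transcription and which are held in the cytosol when mTORC1 is active at the lysosomal surface.

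The CLEAR element was searched in promoters, because it is the sequence through which these genes are known to be controlled together. RefSeq promoters (GRCh38.p14, 250 bases before to 50 bases after a start site) were matched for 31 of the 46 members, with 38 promoters. The core TCACGTGA was found in 5 of these 31 genes (16.1%), against 321 of 27305 genes with a promoter (1.18%) and 0.98% of all promoters. The shorter CACGTG, which lies inside it, was found in 8 of 31 (25.8%), against 2396 of 27305 (8.77%) and 7.26% of all promoters. Because the element is known from lysosomal genes, a higher share among the members follows from their choice and is not a result of these libraries. The genes compared with were not limited to those expressed in this line. Both motifs are palindromes, so a match on either strand is the same match. The stretches around the matches are given by name, 5′ to 3′ on the strand of the gene, with each CACGTG in capitals, extended to TCACGTGA where the flanking bases fit.

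Of these 8 genes, MCOLN1 (chr19:7522562-7522636), GAA (chr17:80101484-80101576), LAMP1 (chr13:113297027-113297264), ATP6V0D1 (chr16:67481190-67481237) and CTSA (chr20:45891273-45891336) hold the longer core, and CTSD (chr11:1763949-1763994), NEU1 (chr6:31862922-31862967) and CTSF (chr11:66568632-66568749) only the shorter one. ATP6V0D1, CTSD, NEU1 and CTSF are on the minus strand and the others on the plus strand.
MCOLN1: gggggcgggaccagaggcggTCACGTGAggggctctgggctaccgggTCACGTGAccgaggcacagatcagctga
GAA: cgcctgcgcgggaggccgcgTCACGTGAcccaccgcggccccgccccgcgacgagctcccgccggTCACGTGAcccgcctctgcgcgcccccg
LAMP1: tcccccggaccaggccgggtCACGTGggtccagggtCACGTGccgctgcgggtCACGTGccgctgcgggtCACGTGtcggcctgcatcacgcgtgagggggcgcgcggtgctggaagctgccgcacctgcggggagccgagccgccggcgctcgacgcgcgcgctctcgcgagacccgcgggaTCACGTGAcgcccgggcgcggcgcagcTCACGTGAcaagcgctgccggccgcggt
ATP6V0D1: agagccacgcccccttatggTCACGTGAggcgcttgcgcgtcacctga
CTSA: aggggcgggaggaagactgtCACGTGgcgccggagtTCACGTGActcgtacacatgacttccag
CTSD: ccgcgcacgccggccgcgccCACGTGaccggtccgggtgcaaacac
NEU1: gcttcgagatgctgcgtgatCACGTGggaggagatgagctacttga
CTSF: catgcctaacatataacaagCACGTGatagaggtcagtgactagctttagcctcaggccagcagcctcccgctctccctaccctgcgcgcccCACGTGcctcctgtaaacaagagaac

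LAMP1 holds 6 copies of CACGTG, 2 of them with the longer core at 29 and 2 bases before the start site. MCOLN1 holds its cores at 42 and 15 bases before the start, and GAA at 77 and 32 bases. The match of CTSD lies 47 bases before the start and that of NEU1 126 bases. A match is a description of the letters and was not tested as a binding site.

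RBCK1 itself was at 41.53, 46.15 and 45.61 FPKM in siRBCK1 libraries, against 64.96, 63.62 and 73.37 FPKM in siControl libraries, with no overlap. It fell to 66.0% of the siControl mean, with log2 fold change -0.59 (SE, standard error, 0.07, limma adjusted p = 6.55e-05). ESR1 and PGR were at or below 0.25 and 0.03 FPKM in every library, and ERBB2 was between 11.66 and 18.42 FPKM. Of 5 markers of the mesenchymal-like line 4 were expressed, SPARC being the exception at or below 0.41 FPKM. All 3 epithelial markers were expressed too, KRT8 between 628.80 and 789.06, KRT18 between 468.61 and 551.03 and EPCAM between 6.73 and 8.78 FPKM. Among these markers, ERBB2 and CAV1 were called higher in siRBCK1 libraries (log2 fold changes of 0.46 and 0.28). CD44 and KRT8 were called lower (-0.25 and -0.19). The FPKM values summed to between 587248.4 and 594194.1 in siRBCK1 libraries and to between 614082.0 and 659065.0 in siControl libraries. Genes were compared on log2(FPKM + 1), a scale that shrinks changes at low FPKM, with limma over the 11135 genes that reached 1 FPKM in at least 3 libraries, and called at an adjusted p under 0.05. All 46 members passed this filter, CTSK with 3 siRBCK1 libraries and 1 siControl library at 1 FPKM or more. Nothing says whether the 3 replicates were separate cultures, and the p-values therefore cover only the variation among these libraries, which may be technical.

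Of the 46 members, 12 were higher in siRBCK1 libraries (26.1%), 15 were lower (32.6%) and the other 19 missed the threshold. Among all tested genes 36.8% were called higher and 17.1% lower. The median log2 fold change of the members was -0.05, beside 0.11 for all tested genes. Counting libraries alone, 11 members had every siRBCK1 value above every siControl value and 16 had every siRBCK1 value below, beside 42.7% and 20.1% of all tested genes. With the libraries brought to a common trimmed mean, which moved the median of all genes to 0.002, 7 members were higher and 23 lower, beside 24.0% and 26.2% of all genes. By role, trimmed-mean scaling gave 1 higher and 6 lower of the 10 V-ATPase genes, 1 and 5 of the 11 cathepsins, 2 and 5 of the 11 glycosidases and sulfatases, 2 and 3 of the 7 lipid, protein and cofactor enzymes and 0 and 4 of the 5 membrane proteins, and of the transcription factors TFEB alone was called. The 8 lower calls gained were those of CTSA, CTSL, LAMP2, GUSB, HEXA, NAGLU, ATP6V1A and ATP6AP1. Called changes were small for most members, between -0.51 and 0.48 on the log2 scale, with the exception of ATP6V1D at -1.11.

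**Figure D1:**
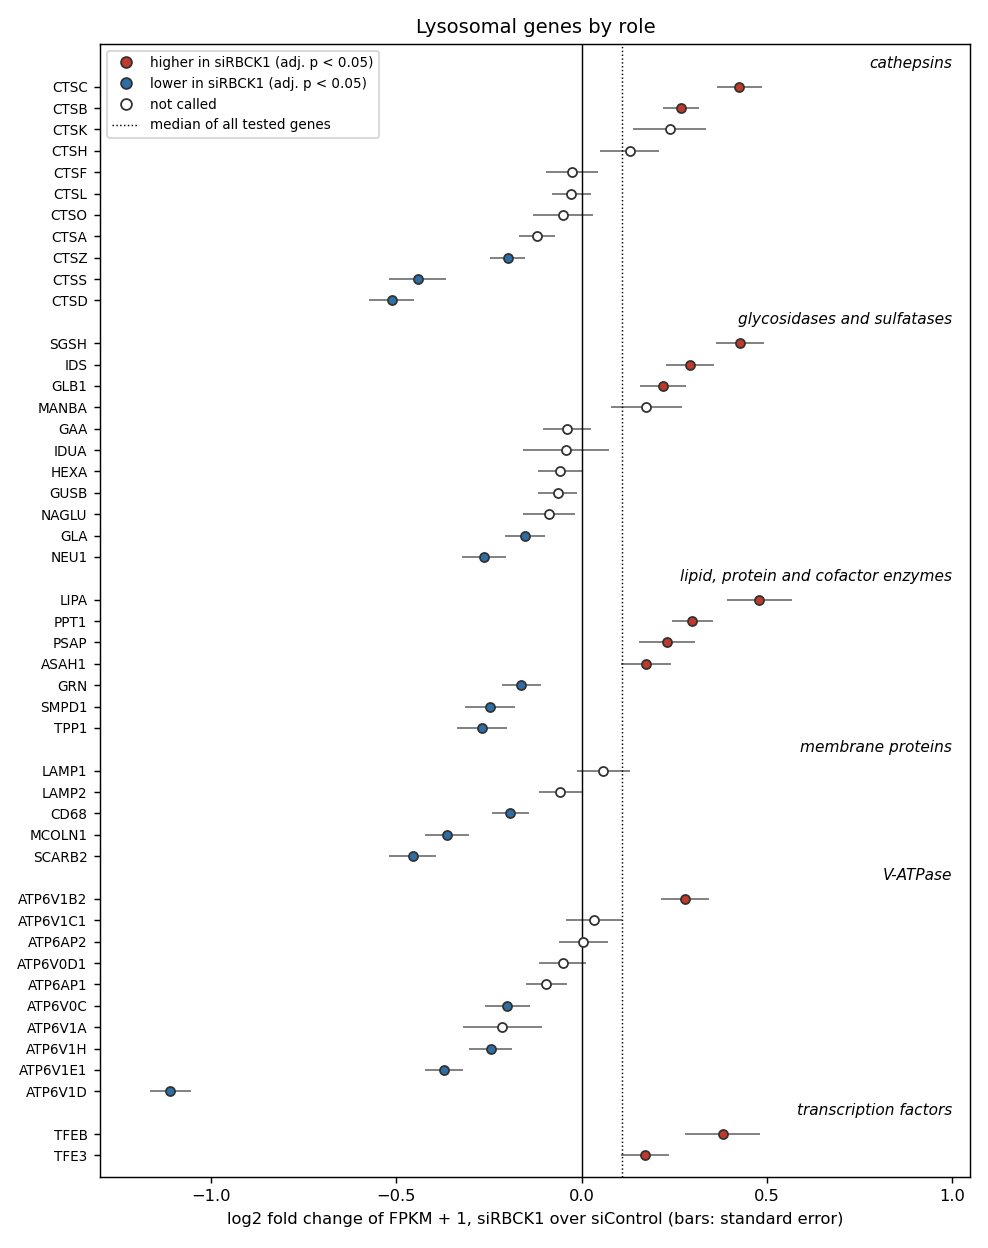
Log2 fold change of FPKM + 1 in siRBCK1 over siControl libraries (x axis) for each of the 46 genes (rows, grouped by role), as points with standard errors from limma. Filled points passed an adjusted p of 0.05, and the dotted line is the median of all tested genes, 0.11. ATP6V1D lies apart from the other genes at -1.11.

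Of the 10 V-ATPase genes, 1 rose, 4 fell and the other 5 missed the threshold, beside 36.8% higher and 17.1% lower among all tested genes. ATP6V1D, the D subunit of the central shaft that turns inside V1, was at 33.71, 33.41 and 33.62 FPKM in siRBCK1 libraries, against 76.13, 69.30 and 75.79 FPKM in siControl libraries. The groups lay far apart, and the siRBCK1 libraries differed from each other by less than 1 FPKM. ATP6V1D (gene 51382, chromosome 14 from 67337872 to 67359804 on GRCh38) fell to 45.5% of the siControl mean (33.6 ± 0.154 against 73.7 ± 3.85 FPKM, SD, n = 3 each), with a log2 fold change of -1.11 (SE 0.06, limma adjusted p = 2.09e-07). Ordered by log2 fold change from the lowest, it was number 43 of the 11135 genes tested. Of its exonic bases, 6.33% overlap exons of EIF2S1 on the opposite strand, and the counting is not stated to use strand.

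ATP6V1E1, a subunit of the peripheral stalks that hold V1 in place, was at 58.08, 56.91 and 57.02 FPKM in siRBCK1 libraries, against 75.15, 71.00 and 77.32 FPKM in siControl libraries. It fell by 0.37 on the log2 scale (SE 0.05, limma adjusted p = 0.00022), with no overlap between the groups. A pseudogene of it, ATP6V1E1P1, is annotated and could share reads. ATP6V1H, which couples V1 to V0, fell by 0.25 (SE 0.06, limma adjusted p = 0.00552), at 20.13, 19.12 and 19.73 FPKM in siRBCK1 libraries against 22.40, 23.92 and 24.21 FPKM in siControl libraries. ATP6V1B2, the B subunit that forms the ATP-splitting ring with the A subunit, moved the other way and was at 21.18, 21.74 and 22.21 FPKM, against 18.43, 18.36 and 16.44 FPKM, with log2 fold change 0.28 (SE 0.07, limma adjusted p = 0.00441). Once the trend of each library with transcript length and GC content had been removed, the rise of ATP6V1B2 was no longer called (log2 fold change 0.05, limma adjusted p = 0.422), whereas the falls of ATP6V1D, ATP6V1E1 and ATP6V1H were (-1.17, -0.39 and -0.33). ATP6V1A, the catalytic A subunit, had 4.80 ± 0.256 against 5.78 ± 1.03 FPKM (SD, n = 3 each) and did not pass (log2 fold change -0.21, limma adjusted p = 0.111), but passed without siControl replicate 3 (adjusted p = 0.0142) and under each of the other scalings, with log2 fold changes of -0.32 (trimmed mean), -0.37 (quantile) and -0.43 (length and GC content). ATP6V1C1 did not pass and had a log2 fold change of 0.03, and it was below 0 with quantile normalization (-0.09) and with trimmed-mean scaling (-0.08) and was called lower with the length and GC trend removed (-0.19, adjusted p = 0.0355). Summed over the 6 V1 members, FPKM values were 150.31, 148.03 and 150.59 in siRBCK1 libraries, against 212.57, 199.69 and 210.31 in siControl libraries. This was 72.1% of the siControl mean, and ATP6V1D and ATP6V1E1 contributed most to the sum. It leaves out ATP6V1F and ATP6V1G1, which were not members and had more FPKM than any V1 member. The sum therefore does not stand for V1 as a whole.

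Among the V0 members, ATP6V0C, which forms the proton-carrying ring, was the most abundant, at 372.25, 399.30 and 374.38 FPKM in siRBCK1 libraries against 475.96, 416.64 and 426.74 FPKM in siControl libraries. Its fall of 0.20 on the log2 scale (SE 0.06, limma adjusted p = 0.0171) was lost after quantile normalization (-0.03, adjusted p = 0.722) and with the length and GC trend removed (-0.09, adjusted p = 0.21). It was also lost without siRBCK1 replicate 1 (adjusted p = 0.0671) or 3 (0.0702) or siControl replicate 1 (0.0794). In addition, 4 pseudogenes of ATP6V0C are annotated and 72.1% of its exonic bases overlap other annotated genes on its strand. ATP6V0D1 had a log2 fold change of -0.05 and the accessory subunits ATP6AP1 and ATP6AP2 of -0.10 and 0.005, none of which passed. ATP6AP1 was called lower after trimmed-mean scaling (-0.22, adjusted p = 0.017) and with the length and GC trend removed (-0.18, adjusted p = 0.0239), and ATP6AP2 was called lower in the second of these alone (-0.17, adjusted p = 0.0173).
With the subunits that were not members, 19 V-ATPase genes were tested, and 5 were higher, 7 lower and 7 not called. The background, counted over every tested gene, was 36.8% on the higher side and 17.1% on the lower. On trimmed-mean values 4 of the 19 rose and 9 fell. The background then stood at 24.0% and 26.2%, in the same order. ATP6V1F, the partner of ATP6V1D in the central shaft, was at 310.5 ± 13.5 against 329.5 ± 27.4 FPKM (SD, n = 3 each) and did not pass (log2 fold change -0.08, limma adjusted p = 0.303). ATP6V1G1, another V1 subunit, was at 101.9 ± 1.216 against 81.68 ± 2.055 FPKM (SD, n = 3 each). It was called higher (log2 fold change 0.32, limma adjusted p = 0.000348). ATP6V1F and ATP6V1G1 were singled out after their values were seen.

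**Figure D2:**
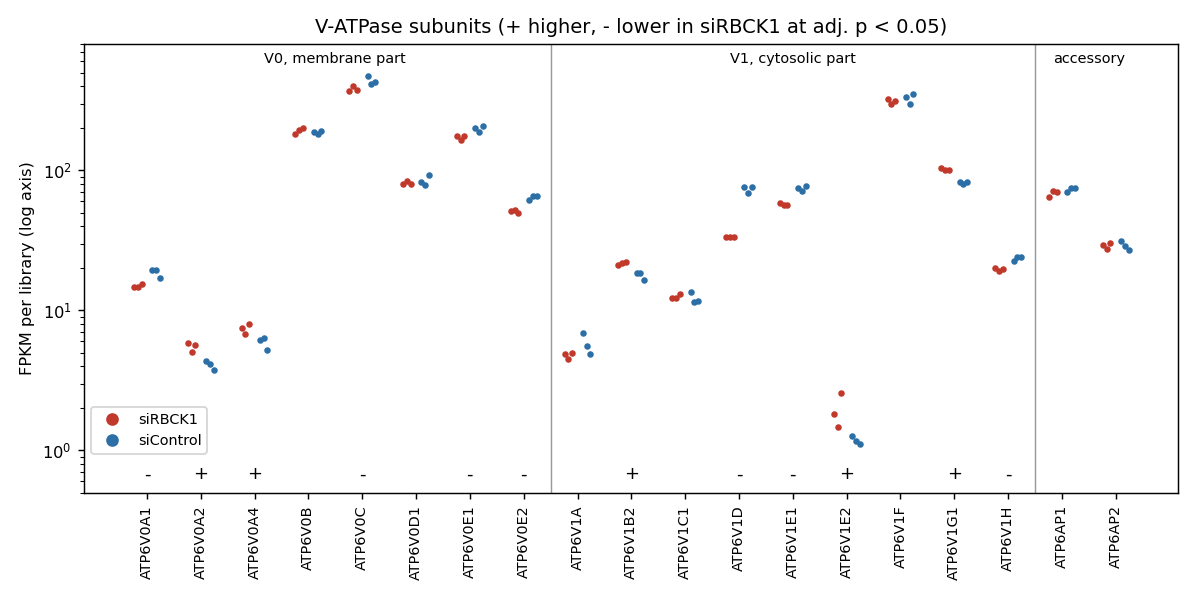
FPKM of each tested V-ATPase gene (x axis) in the 3 siRBCK1 libraries (red) and the 3 siControl libraries (blue), on a log axis. A plus or minus above a name marks a gene called higher or lower in siRBCK1 libraries. ATP6V1D shows the widest gap, with 33.41 to 33.71 FPKM against 69.30 to 76.13 FPKM.

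Of the 11 cathepsins, the proteases of the lysosome, 2 rose, 3 fell and the other 6 did not pass. The shares over all tested genes were 36.8% higher and 17.1% lower. CTSD, the aspartic protease cathepsin D, was the most abundant of all 46 members, at 631.08, 686.00 and 629.67 FPKM in siRBCK1 libraries against 878.93, 914.34 and 986.86 FPKM in siControl libraries. All siRBCK1 values lay below the lowest siControl value. CTSD (gene 1509, chromosome 11 from 1752755 to 1763927 on GRCh38) fell to 70.0% of the siControl mean, with a log2 fold change of -0.51 (SE 0.06, limma adjusted p = 8e-05), which was -0.26 after quantile normalization. Of its exonic bases, 52.7% overlap exons of other annotated genes. CTSS, cathepsin S, known for processing the invariant chain of MHC class II, was at 4.82, 4.82 and 5.22 FPKM in siRBCK1 libraries against 7.25, 6.68 and 7.35 FPKM in siControl libraries. It fell by 0.44 on the log2 scale (SE 0.08, limma adjusted p = 0.000782). CTSZ, a carboxypeptidase, was at 221.98, 229.75 and 225.18 FPKM against 252.82, 262.15 and 262.87 FPKM and fell by 0.20 (limma adjusted p = 0.00455), a call that quantile normalization ended (-0.09, adjusted p = 0.0791).

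CTSC, a dipeptidyl peptidase that activates other proteases, was at 74.68, 72.13 and 83.08 FPKM in siRBCK1 libraries, against 57.31, 56.75 and 55.98 FPKM in siControl libraries. The groups did not overlap, and CTSC rose by 0.43 on the log2 scale (SE 0.06, limma adjusted p = 0.000228), or by 0.19 once the trend with length and GC content was removed (adjusted p = 0.0312). CTSB, cathepsin B, was at 68.36, 69.64 and 67.61 FPKM against 55.56, 56.16 and 58.37 FPKM, with log2 fold change 0.27 (limma adjusted p = 0.00111), which did not pass after trimmed-mean scaling (0.15, adjusted p = 0.0606). CTSA, CTSF, CTSH, CTSK, CTSL and CTSO did not pass, with log2 fold changes between -0.12 and 0.24. CTSO was called lower with the length and GC trend removed (-0.23, limma adjusted p = 0.0236), and CTSL after trimmed-mean scaling (-0.15, limma adjusted p = 0.0347). CTSA missed the threshold closely (limma adjusted p = 0.0534), with 190.02, 200.31 and 189.00 FPKM against 208.47, 207.42 and 214.02 FPKM, and was called lower after trimmed-mean scaling (-0.25, adjusted p = 0.00737). CTSH passed without siControl replicate 3 (adjusted p = 0.0302), and CTSK, the collagen-cutting protease of bone resorption, without siControl replicate 3 (0.0213) or siRBCK1 replicate 2 (0.044). CTSK passed the filter on low values mainly through its siRBCK1 libraries. It is not among the called members of the main fit, but counts under settings in which it passed include it. For CTSL, 5 pseudogenes are annotated that could share reads.
The FPKM values of the 11 cathepsins summed to 1271.42, 1346.80 and 1284.20 in siRBCK1 libraries, against 1543.24, 1582.37 and 1669.22 in siControl libraries. CTSD made up 49.9% of the sum in siRBCK1 libraries and 58.0% in siControl libraries. Without CTSD the sum was 97.1% of its siControl mean.

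**Figure D3:**
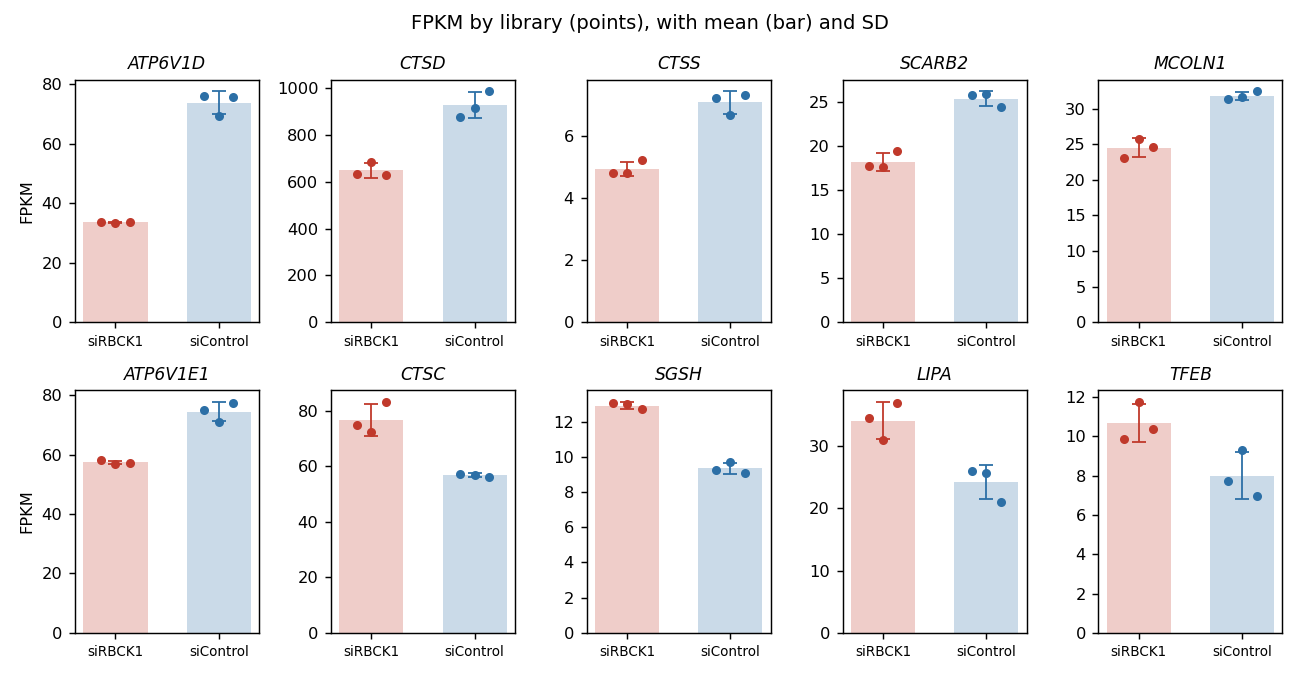
FPKM by library (y axis, starting at 0) for 10 genes, with siRBCK1 libraries (red) left of siControl libraries (blue). Points are libraries, bars are means and error bars are SD (n = 3). The groups do not overlap in any of the 10 genes, with TFEB closest to it at 9.87 against 9.29 FPKM.

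Of the 5 membrane proteins of the lysosome, 3 fell and 2 missed the threshold, beside 17.1% of all tested genes called lower. SCARB2 (LIMP-2), which carries glucocerebrosidase to the lysosome, was at 17.72, 17.62 and 19.44 FPKM in siRBCK1 libraries against 25.80, 25.97 and 24.42 FPKM in siControl libraries. It fell to 71.9% of the siControl mean, with log2 fold change -0.46 (SE 0.06, limma adjusted p = 0.000205). MCOLN1, the calcium channel TRPML1 of the lysosomal membrane, whose promoter holds the CLEAR core, was at 23.15, 25.79 and 24.68 FPKM against 31.34, 31.69 and 32.47 FPKM. It fell by 0.36 on the log2 scale (SE 0.06, limma adjusted p = 0.000549), without overlap between the groups. CD68, a member of the LAMP family best known from macrophages, was at 91.85, 88.73 and 91.12 FPKM against 99.39, 105.81 and 105.97 FPKM and fell by 0.19 (limma adjusted p = 0.00771). Exons of other genes overlap 85.8% of the exonic bases of CD68.

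LAMP1 and LAMP2, the most abundant glycoproteins of the lysosomal membrane, did not pass. LAMP1 was at 72.44, 72.88 and 72.32 FPKM in siRBCK1 libraries against 70.88, 76.70 and 62.02 FPKM in siControl libraries, with overlap and a log2 fold change of 0.06, which turned to -0.07 after trimmed-mean scaling. LAMP2 was at 26.72, 26.55 and 28.34 FPKM against 29.55, 28.25 and 27.30 FPKM (log2 fold change -0.06, limma adjusted p = 0.415). It was called lower after trimmed-mean scaling (-0.18, adjusted p = 0.0206) and with the length and GC trend removed (-0.28, adjusted p = 0.00113).
Because CD68 and CTSS are also genes of macrophages, markers of other cells were read in the same libraries. Of 9 leukocyte and macrophage markers, 7 were in the tables and 2, CD14 and CSF1R, reached 1 FPKM in at least 3 libraries. The FPKM values of the 7 summed to values that ranged from 3.78 to 3.98 in siRBCK1 libraries and from 5.58 to 6.17 in siControl libraries. The defining marker PTPRC (CD45) was at or below 0.24 FPKM in every library, ITGAM at or below 0.02, and none of the 7 was at 0 in all libraries. CD14 and CSF1R were called lower (log2 fold changes of -0.47 and -0.40). Osteoclast markers stayed at or below 0.53 FPKM. Of 5 fibroblast markers, COL1A1 and PDGFRB reached 1 FPKM in at least 3 libraries and were called higher (log2 fold changes of 0.47 and 0.41), the 5 summed to between 7.70 and 8.26 FPKM in siRBCK1 libraries and between 4.76 and 5.60 FPKM in siControl libraries, and DCN was at or below 0.02 FPKM. The part of any of these levels in the results was not tested.

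Among 11 glycosidases and sulfatases, 3 rose, 2 fell and 6 did not pass, against 2 higher and 5 lower after trimmed-mean scaling. Over all tested genes the shares were 36.8% higher and 17.1% lower, and 24.0% and 26.2% after that scaling. SGSH, the sulfatase that removes N-linked sulfate from heparan sulfate, was at 13.07, 12.99 and 12.69 FPKM in siRBCK1 libraries against 9.26, 9.71 and 9.07 FPKM in siControl libraries. It rose to 138% of the siControl mean, with log2 fold change 0.43 (SE 0.07, limma adjusted p = 0.000371), without overlap. IDS, another sulfatase of the same breakdown route, was at 15.71, 15.03 and 16.07 FPKM against 12.88, 12.90 and 11.92 FPKM, with log2 fold change 0.29 (limma adjusted p = 0.00359) that was not called once the trend with length and GC content was removed (0.10, adjusted p = 0.119). The other enzymes of heparan sulfate breakdown among the members, IDUA, NAGLU and GUSB, had log2 fold changes of -0.04, -0.09 and -0.07 and did not pass. After trimmed-mean scaling NAGLU (-0.21, adjusted p = 0.0418) and GUSB (-0.19, adjusted p = 0.0172) were called lower. For GUSB, 10 pseudogenes are annotated, and for IDS 1, with 17.4% of the exonic bases of IDS overlapped by other genes.

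NEU1 (sialidase), GLB1 (beta-galactosidase) and CTSA form a complex in the lysosome, in which CTSA protects the other two. NEU1 was at 21.76, 22.97 and 22.50 FPKM in siRBCK1 libraries against 27.98, 27.61 and 25.79 FPKM in siControl libraries. NEU1 fell by 0.26 on the log2 scale (SE 0.06, limma adjusted p = 0.00349), while GLB1 had the log2 fold change 0.22 (SE 0.06, limma adjusted p = 0.0126) and CTSA, as given above, did not pass. GLB1 was at 33.09, 34.82 and 35.30 FPKM against 29.29, 31.43 and 27.53 FPKM, and its call was lost after trimmed-mean scaling (0.10, adjusted p = 0.178) and without siRBCK1 replicate 3 (0.20, adjusted p = 0.058). GLA, alpha-galactosidase A, was at 39.21, 40.46 and 41.58 FPKM against 43.18, 45.52 and 46.60 FPKM, and its fall of 0.15 (limma adjusted p = 0.0336) was lost with a replicate block (0.0539). It was also lost without any siRBCK1 replicate and without siControl replicate 2 or 3 (adjusted p between 0.0531 and 0.126), which left NEU1 alone on the lower side of this group. GAA, the enzyme that breaks down glycogen, HEXA and MANBA did not pass, with log2 fold changes of -0.04, -0.06 and 0.17. GAA was called lower after quantile normalization (-0.16, limma adjusted p = 0.0474). HEXA was called lower after trimmed-mean scaling (-0.18, limma adjusted p = 0.0441) and with the length and GC trend removed (-0.22, limma adjusted p = 0.0281).

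All 7 members that handle lipids, proteins and cofactors passed the test, 4 higher and 3 lower, beside 36.8% and 17.1% of all tested genes. After trimmed-mean scaling 2 were higher and 3 lower, and with the length and GC trend removed 1 and 3. LIPA, the acid lipase that frees cholesterol and fatty acids, was at 34.43, 30.92 and 36.88 FPKM in siRBCK1 libraries, against 25.92, 25.59 and 21.05 FPKM in siControl libraries. LIPA showed the largest called rise of the 46 members, 0.48 on the log2 scale (SE 0.09, limma adjusted p = 0.00117). PPT1, which removes palmitate from proteins, was at 95.29, 98.71 and 102.86 FPKM against 83.06, 75.76 and 81.91 FPKM and rose by 0.30 (limma adjusted p = 0.00119), or by 0.15 with the trend with length and GC content removed, which did not pass (adjusted p = 0.074). Exons of CAP1 on the opposite strand overlap 23.4% of the exonic bases of PPT1. PSAP, the precursor of the saposins that present lipids to their enzymes, was at 165.88, 156.81 and 163.49 FPKM against 139.17, 154.87 and 121.86 FPKM, with log2 fold change 0.23 (limma adjusted p = 0.026). ASAH1, acid ceramidase, was at 14.41, 13.77 and 14.80 FPKM against 12.85, 13.03 and 11.88 FPKM, with a log2 fold change of 0.17 (limma adjusted p = 0.046).

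The calls of PSAP and ASAH1 were the less firm ones of this group. That of PSAP was lost after trimmed-mean scaling (0.11, adjusted p = 0.24), with the length and GC trend removed (adjusted p = 0.0554) and without siRBCK1 replicate 1 (0.0736) or 3 (0.072) or siControl replicate 1 (0.0596). That of ASAH1 was lost after quantile normalization (adjusted p = 0.424), after trimmed-mean scaling (0.439) and with a replicate block (0.0865), and its sign turned with the trend with length and GC content removed (-0.06). It was lost as well without any siRBCK1 replicate and without siControl replicate 1 or 3 (adjusted p between 0.0646 and 0.169), so that 2 members of the group, LIPA and PPT1, were higher without siRBCK1 replicate 1 or 3 or siControl replicate 1.
TPP1, tripeptidyl peptidase, was at 22.94, 20.30 and 21.50 FPKM in siRBCK1 libraries against 26.83, 27.40 and 24.41 FPKM in siControl libraries and fell by 0.27 on the log2 scale (limma adjusted p = 0.00706). SMPD1, acid sphingomyelinase, was at 22.02, 21.84 and 22.88 FPKM against 24.21, 28.18 and 27.51 FPKM and fell by 0.25 (limma adjusted p = 0.0106). Both falls were called under every other setting tried. GRN, progranulin, was at 227.58, 238.01 and 219.60 FPKM against 247.56, 264.34 and 255.52 FPKM, with log2 fold change -0.16 (limma adjusted p = 0.0209) that quantile normalization ended (-0.05, adjusted p = 0.426) and without siRBCK1 replicate 1 (0.0671) or 3 (0.11).

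TFEB, the regulator of lysosomal genes, was at 9.87, 11.75 and 10.37 FPKM in siRBCK1 libraries, against 7.72, 9.29 and 6.96 FPKM in siControl libraries. Each siRBCK1 value was above each siControl value, and TFEB reached the log2 fold change 0.38 (SE 0.10, limma adjusted p = 0.00926), or of 0.23 after quantile normalization, which did not pass (adjusted p = 0.0546). TFE3 was at 71.82, 71.05 and 68.62 FPKM against 60.61, 69.11 and 58.41 FPKM, with overlap and a log2 fold change of 0.17 (limma adjusted p = 0.0467). That call was lost after quantile normalization (adjusted p = 0.0838), after trimmed-mean scaling (0.567), with a replicate block (0.051) and without any siRBCK1 replicate or without siControl replicate 1 or 3 (between 0.0772 and 0.135). TFEB was called in each of these settings except quantile normalization, under which neither factor was. RNA levels do not show where the TFEB and TFE3 proteins were in the cell. Of the 8 members with CACGTG in the promoter, MCOLN1, CTSD and NEU1 were lower, CTSA, CTSF, LAMP1, GAA and ATP6V0D1 did not pass, and none was called higher with the libraries as deposited. Beside this, 26.1% of all members were higher and 32.6% lower, and 36.8% and 17.1% of all tested genes. Members without a matched promoter were not searched, and a link between the motif and the calls was not tested.

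**Figure D4:**
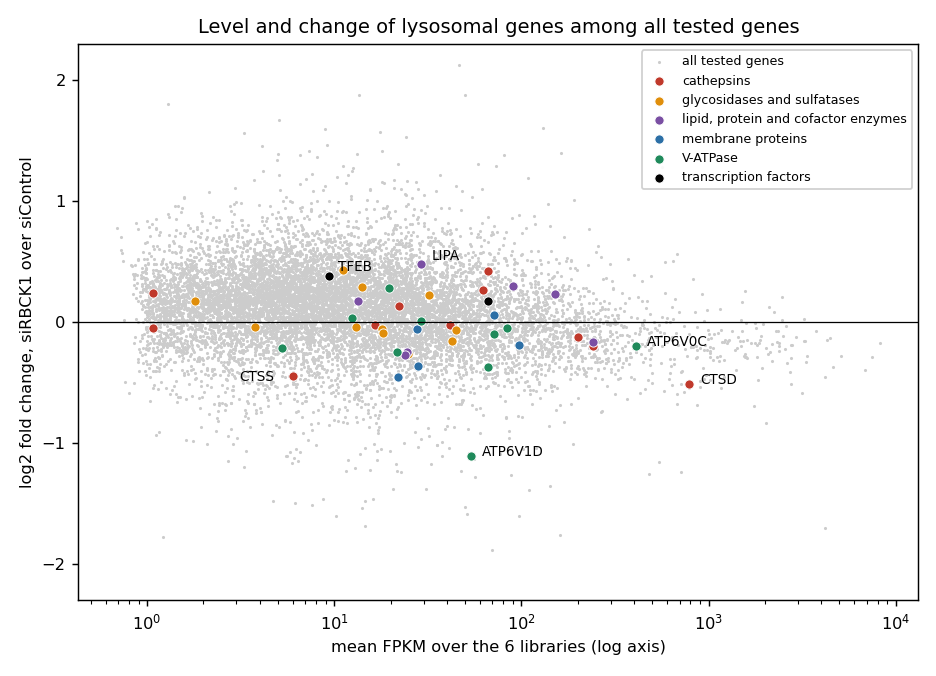
Log2 fold change in siRBCK1 over siControl libraries (y axis) against the mean FPKM of the 6 libraries (x axis, log scale) for the 46 genes, coloured by role, over all 11135 tested genes (grey). Of the 46, 39 had a mean of at least 10 FPKM, and CTSD and ATP6V0C were the most abundant.

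The changes were also set against transcript length and level, among the members and among all tested genes. Across the 46 members, log2 fold changes correlated with the length of the longest transcript at a Spearman's rho of 0.351, beside 0.224 across 11074 tested genes with a length. With the mean FPKM the rho was -0.203, beside -0.194 across all 11135. Genes are not independent replicates, and these values are a description. The 12 members called higher had a median length of 3942.5 bases and the 15 called lower one of 2253 bases. With the trend of each library with length and GC content removed, 7 members were higher and 22 were lower, beside 25.2% and 25.5% of all 11074 genes in that fit. Across 3 other scalings (trimmed mean, quantile, and length and GC content), 3 of the 12 higher calls were kept in all, those of CTSC, SGSH and LIPA. Of the 15 lower calls, 12 were kept in all 3, those of CTSD, CTSS, SCARB2, CD68, GLA, NEU1, SMPD1, TPP1, MCOLN1, ATP6V1D, ATP6V1E1 and ATP6V1H. The share of calls kept over all tested genes was not computed. Trimmed-mean scaling alone moved the higher share of all tested genes from 36.8% to 24.0% and the lower share from 17.1% to 26.2%.

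Other genes of the lysosome, 94 names listed by their role with earlier results of these data known, gave 93 genes in the tables and 86 tested. Of these 86, 25 rose, 17 fell and 44 missed the threshold, with a median log2 fold change of 0.05. These were 29.1% higher and 19.8% lower, beside 36.8% and 17.1% of all tested genes. After trimmed-mean scaling 14 were higher (16.3%) and 31 lower (36.0%), beside 24.0% and 26.2%. The largest called fall at 5 FPKM or more was that of CTSW, a cathepsin known from lymphocytes, at 6.54, 5.93 and 6.57 FPKM in siRBCK1 libraries against 21.90, 20.20 and 26.39 FPKM in siControl libraries (log2 fold change -1.69, limma adjusted p = 4.72e-07). ACP2, a lysosomal acid phosphatase, was at 12.5 ± 1.39 FPKM against 27.3 ± 1.84 FPKM (SD, n = 3 each) and fell by 1.07. LAPTM5, a lysosomal membrane protein best known from blood cells, was at 22.87, 24.10 and 21.92 FPKM against 45.19, 50.74 and 46.88 FPKM and fell by 1.02. SCPEP1, a serine carboxypeptidase, fell by 0.74. These 4 falls were larger than that of any member except ATP6V1D.

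On the higher side of the wider list, LGMN (legumain), which trims cathepsins to their mature form, was at 28.42, 31.30 and 30.85 FPKM in siRBCK1 libraries against 22.43, 22.09 and 17.46 FPKM in siControl libraries and rose by 0.53 on the log2 scale (limma adjusted p = 0.000691). TMEM175, an ion channel of the lysosomal membrane, rose by 0.49, and ATP6V0A2, a V0 subunit, by 0.36. FLCN (folliculin), which acts with the Rag GTPases in the control of TFEB and TFE3, was at 11.74, 9.61 and 10.57 FPKM against 7.44, 8.98 and 6.22 FPKM and rose by 0.45 (SE 0.12, limma adjusted p = 0.00698). By role, nutrient sensing and related MiT factors had 7 of 13 genes higher and 0 lower (5 and 2 after trimmed-mean scaling), and other hydrolases had 6 higher and 8 lower of 31 (2 and 14). Mannose 6-phosphate sorting had 2 higher and 1 lower of 8 (1 and 1), other V-ATPase subunits 4 and 3 of 9 (3 and 3), and other membrane and transport proteins 6 and 5 of 25 (3 and 11), so that in this last role the balance turned to the lower side. All of these are read against the shares over all tested genes given above, and no role was tested against the others.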

How the data were processed

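RNA of 6 MDA-MB-231 libraries (3 siRBCK1, 3 siControl) was sequenced by the authors on a BGI platform. They deposited FPKM values with 2 decimals for 17149 genes, on GRCh38 per the submitters' processing notes. The aligner, counting tool, gene annotation and strand setting were not given in the sources used here. Gene numbers were matched to RefSeq symbols (17022 of 17149). The header inside the table of siRBCK1 replicate 2 carries the name of replicate 1, and these tables differ. The values at 2 decimals did not give whole reads, so no count test was run.

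Log2(FPKM + 1) was fitted for 11135 genes (at least 1 FPKM in at least 3 libraries) with limma 3.58.1 in R 4.3.3 (eBayes with trend on the mean level). Tests were two-sided, adjusted by Benjamini-Hochberg and called under 0.05, and the script was tested on simulated data. No block was used in the main fit, because same-numbered libraries did not deviate together, though this cannot exclude that libraries were paired. Lengths and GC content came from the longest GENCODE 29 transcript of each gene (11074 of 11135 genes). Exonic overlaps and named pseudogenes came from GENCODE 29. The members and lists were chosen with earlier results of these data known. All members are named, and of the wider list the 4 largest changes in each direction among called genes without overlap whose higher group averaged 5 FPKM or more. ATP6V1F and ATP6V1G1 were named in addition, after their values were seen. Alternatives were a pseudocount of 0.1, no filter or one of 5 FPKM, quantile and trimmed-mean scaling, removal of each library's trend with length and GC content, a replicate block, no intensity trend, and each library left out.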

Additional observations from a re-analysis of the deposited data

How the results depend on the processing

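Results were recomputed under 15 other settings. Of 27 called members, 14 kept their call in all 15, 3 higher and 11 lower, and RBCK1 kept its own. The share of calls kept over all tested genes was not computed, so these counts are not read as a trait of the members. With each library left out in turn, 8 to 12 members were higher and 12 to 15 lower. The higher counts without siRBCK1 replicate 2 and without siControl replicate 3 include CTSK, which passed the filter mainly through its siRBCK1 libraries. Trimmed-mean scaling gave 7 higher and 23 lower members and, on the wider list, 14 and 31. With the trend with length and GC content removed 7 members were higher, and 28 genes of the wider list were lower. Together with a replicate block, 5 members were higher, with 15 higher and 27 lower on the wider list. After quantile normalization 28 of the wider list were lower. Over all tested genes, 24.0% were higher and 26.2% lower after trimmed-mean scaling. With the length and GC trend removed, 25.2% and 25.5% were. Shares over all tested genes were not computed for the other settings, so those counts cannot be set against them. The median log2 fold change of the members (-0.05) was -0.092 with quantile normalization, -0.166 with trimmed-mean scaling and -0.104 with the length and GC trend removed, with or without a block. The causes were not tested beyond the construction of each setting.

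The replicate block alone gave 10 higher and 14 lower members, with no share over all tested genes computed beside them. It ended the calls of GLA, ASAH1 and TFE3 and changed no other call of a member. Correlations of the deviations of same-numbered libraries from their group means were -0.06, -0.187 and -0.038, and no library correlated best with its own number. The highest were those of siRBCK1 1 with siControl 2 (0.229), siRBCK1 2 with siControl 3 (0.199) and siRBCK1 3 with siControl 1 (0.13). Deviations within a group of 3 libraries cancel out, which constrains these values. They cannot settle whether libraries were prepared in pairs or batches under these or other numbers.

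Signs turned in these cases. After quantile normalization ATP6V1C1 was at -0.090 and ATP6AP2 at -0.066. After trimmed-mean scaling LAMP1 was at -0.066, ATP6V1C1 at -0.083 and ATP6AP2 at -0.117. With the length and GC trend removed, with or without the block, CTSF was at 0.039, LAMP1 at -0.080, MANBA at -0.050, ASAH1 at -0.064, ATP6V1C1 at -0.193 and ATP6AP2 at -0.171. With a library left out in turn, CTSF ranged from -0.074 to 0.024, LAMP1 from -0.023 to 0.128, IDUA from -0.172 to 0.061, ATP6V0D1 from -0.099 to 0.017, ATP6V1C1 from -0.005 to 0.104 and ATP6AP2 from -0.044 to 0.055. Of these genes ASAH1 alone was called with the values as deposited. The depth of the libraries is unknown, so low levels such as those of CTSK, CTSO and MANBA carry no counting interval.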
